A study of Cyanidioschyzon merolae strain 10D with 7 samples.

Results

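Long interior H3K27me3 domains of Cyanidioschyzon merolae are stretches of trimethylated histone H3 lysine 27 (H3K27me3) that lie far from the chromosome ends of this unicellular red alga. They were chosen from the 3 lists of broad H3K27me3 peaks called against input chromatin: a domain had to lie in peaks of 2 or more of these lists without a break, measure at least 2000 bp, and have its midpoint more than 50 kb from both ends of the chromosome span, as far as peaks reach. There were 301 such domains among 1337 consensus regions, the stretches of any length and place found in peaks of 2 or more of these lists, which is 22.5% of the regions and 39.1% of their bases. The cells were strain 10D in liquid culture under continuous light at 42 °C, with no treatment, so all samples share 1 strain and 1 growth condition. Chromatin was immunoprecipitated with an antibody to H3K27me3 in 3 biological replicates and with an antibody to histone H3 in 3 biological replicates, and 1 input library was sequenced. Each H3K27me3 immunoprecipitation, tagged IP6, IP7 or IP8, has a peak list against input and another against H3, 6 lists in all. The 3 input lists share that 1 input library, the lists give no read counts, and the depth of the libraries is unknown.

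H3K27me3 is deposited by the Polycomb repressive complex PRC2, whose catalytic subunit is an E(z) methyltransferase. In animals and plants the mark spreads over silenced genes as broad domains, and in some fungi it also covers subtelomeric sequence and repeats. C. merolae has a small, gene-dense genome with few introns, so genes follow one another closely along each chromosome.

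The long interior domains covered 918692 bp, 5.56% of the summed spans of the 20 chromosomes. Their median length was 2748 bp, with quartiles of 2288 and 3446 bp and a range of 2006 to 8706 bp, and 19 domains reached 5000 bp. These lengths were set in part by the rule and are a description. Of the other classes, 773 short interior regions under 2000 bp had a median length of 978 bp, and 117 long end regions, as long as the domains but within 50 kb of a span end, had a median of 3348 bp. Domains were mostly separate from one another: the median distance to the nearest other domain was 14424 bp, and 64 of 301 had another domain within 5000 bp. In the lists against input, 296, 285 and 298 of the domains were each covered by 1 peak in IP6, IP7 and IP8, so that few were assembled from several calls.

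Long interior domains lay largely between genes. Of their bases, 12.9% fell inside annotated genes, against 9.38% in short interior regions, 22.2% in long end regions and 56.0% of the bases outside all consensus regions. No gene was touched by 207 of the 301 domains (68.8%), where 76.1% of all consensus regions touched none. The share of domains that touched no gene was thus below that of all regions, of which short interior regions (84.3%) make up the most.

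The 207 gene-free domains sat in wide intergenic stretches. Gene-free here means free of the 5373 genes of the table used. The study also reported H3K27me3 on repetitive elements and found reading frames in its unannotated peaks. Whether these domains hold such elements or unlisted genes was not tested. The stretch between the neighbouring genes was 4161 bp wide in the median, against 1226 bp over all 4465 intergenic stretches in chromosome interiors. A stretch has to be over 2 kb wide to hold such a domain at all, so this contrast is in part built in. The domain filled a median of 66.5% of its stretch, at least 50% of it in 176 domains and at least 80% in 21. Its closer edge was a median of 416 bp from a gene and its other edge 881 bp. That these domains end before the genes on both sides follows from their choice as gene-free, and only the distances are measured.

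Among interior stretches 2 to 3 kb wide, 7.43% (54 of 727) were touched by a long interior domain, and the share was 27.1% (97 of 358) at 3 to 4 kb, 40.4% (78 of 193) at 4 to 5 kb and 52.8% (56 of 106) at 5 kb or more. H3K27me3 of any region length followed the same order: a consensus region touched 2.80% of the stretches under 1 kb, 47.2% of those of 2 to 3 kb and 80.2% of those of 5 kb or more. Of the 106 widest interior stretches, 85 had a consensus region. A wider stretch also has more bases to be touched, so these shares rise with width in part by construction. As a share of bases, consensus regions took 2.17% of the stretches under 1 kb and 21.6% of those of 2 to 3 kb. The share was 32.6% at 3 to 4 kb, 36.9% at 4 to 5 kb and 39.9% at 5 kb or more.

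**Figure D1:**
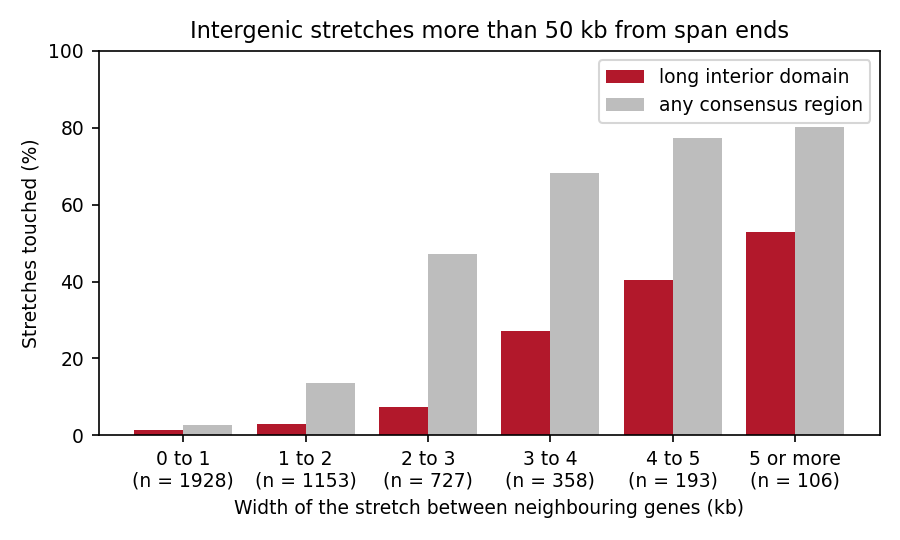
Share of intergenic stretches in chromosome interiors (y, percent) touched by a long interior domain (red) or by any consensus region (grey), by the width of the stretch (x, kb, with the number of stretches). Long interior domains touched 1.30% of stretches under 1 kb and 52.8% of those of 5 kb or more. A wider stretch also has more bases to be touched.

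A minority of domains took in whole genes. Of the 301 domains, 74 touched 1 gene and 20 touched 2, and 114 genes were touched in all. With the requirement that at least 50% of the gene lie inside, 75 genes were counted, 1.40% of the 5373 genes, where all consensus regions together took 3.57%. Of these 75 genes, 71 were protein-coding, 4 were other RNA genes and 0 were transfer RNA genes, and 48 lay wholly inside a domain. Their median length was 1428 bp, against 1347 bp for all genes. The gene table gives no product for a locus, so the genes are given by locus tag only.

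The lists against H3, which the rule did not use but which come from the same H3K27me3 libraries, covered 64 of these 75 genes over at least 50% of their length in at least 2 lists, where 84.4% of the 192 genes at least 50% inside any consensus region passed. More than 99% of the length was covered in all 3 lists in 38 of the 75, where 42.2% of the 192 genes passed, and 3 of the 75 had no covered base, where 3.65% of the 192 had none. The first and the last of these counts were near those of all such genes. The protein-coding gene CMI068C on chromosome 9 had the most bases inside a domain, 3310 of 4026 bp, and was covered over 85.3, 86.0 and 83.2% of its length in the IP6, IP7 and IP8 lists against H3. CMM242C on chromosome 13 (2283 bp) was covered over 100% in each. CMT568C on chromosome 20, with 2682 of 2748 bp inside, was covered over 96.9, 93.7 and 98.5%.

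Other long genes inside domains depended on the list. CMR353C on chromosome 18 (2808 bp, wholly inside) was covered over 100% in IP6 and IP8 and 0% in IP7 against H3. CMT418C on chromosome 20 (2241 bp, wholly inside) was covered over 100% in IP6 and 0% in the other lists against H3. The RNA gene CME093T on chromosome 5, with 2504 of 3888 bp inside, was covered over 76.2% in IP6, 0% in IP7 and 72.9% in IP8. All of the 10 genes with the most bases inside were covered in at least 1 list against H3. The remaining members of that group were CMG019C, CMI070C, CMD110C and CMO090C, with 2785, 2262, 2165 and 2061 bp inside.

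Calling the same immunoprecipitations against H3 asks whether a domain stands above the local amount of nucleosomes rather than above input. Most long interior domains did so. At least 50% of the domain was covered in at least 2 of the 3 lists against H3 for 257 of 301 domains (85.4%), where 78.0% of all consensus regions passed. The share was 72.1% (557 of 773) in short interior regions and 93.2% (109 of 117) in long end regions. In all 3 lists 212 domains (70.4%) were covered to this extent. The counts were 372 of 773 in short interior regions and 99 of 117 in long end regions. Among regions under 2000 bp within 50 kb of a span end it was 95 of 146. No base was covered in any list in 15 domains (4.98%), where 8.00% of all consensus regions had none.

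By list, 79.6, 73.9 and 84.2% of long interior domain bases were in peaks against H3 in IP6, IP7 and IP8, against 64.9, 64.6 and 74.4% of short interior region bases. The means were 79.3 ± 5.15% in long interior domains and 68.0 ± 5.62% in short interior regions (SD, n = 3 lists). Long interior domains were higher within each tag, but the 2 sets of values overlapped, since IP7 of the long domains was below IP8 of the short regions. The difference was 11.3 percentage points (SD 3.01) and did not pass a two-sided exact permutation test over lists (p = 0.2, adjusted over 3 comparisons 0.2), where the smallest p that 3 lists against 3 allow is 0.1. The difference was 6.02 points when the IP6 lists were left out and the regions were formed anew from the others, and 5.97 points with regions covered in 3 of 3 lists. Against input, which chose the regions, the bases covered were 96.7 ± 1.74% in long interior domains and 90.6 ± 3.84% in short interior regions.

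Fold enrichment, the ratio of H3K27me3 signal to control averaged over a peak by the peak caller, was modest over H3 in the long interior domains. The median domain had a fold of 1.40, 1.34 and 1.44 in IP6, IP7 and IP8, against 1.48, 1.48 and 1.54 in short interior regions and 1.83, 1.71 and 1.81 in long end regions, over the regions with a peak in that list. Every value of the long interior domains was below every value of both other classes. Regions without a peak in a list have no fold and are left out. On average 84.1% of long interior domains, 72.7% of short interior regions and 92.6% of long end regions had one. The medians thus compare called regions only, and the part of this selection in the differences was not tested. Long interior domains averaged 1.39 ± 0.0480, short interior regions 1.5005 ± 0.0364 and long end regions 1.79 ± 0.0671 (SD, n = 3 lists). The difference was -0.108 (SD 0.0259) from short interior regions and -0.393 (SD 0.0398) from long end regions, each with a two-sided exact permutation p = 0.1, adjusted 0.15, lower in 3 of 3 lists. That is the smallest p the design allows, so neither difference could pass 0.05. With the limit between end and interior at 25 kb the difference from long end regions was -0.215, and with peaks of a fold of at least 2 it was -0.694, both lower. The difference from short interior regions was -0.350 with that fold limit and -0.287 with a −log10 q of at least 5, where that from long end regions was -0.624. These limits remove peaks by fold or q, so they act on the same values that are compared.

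**Figure D2:**
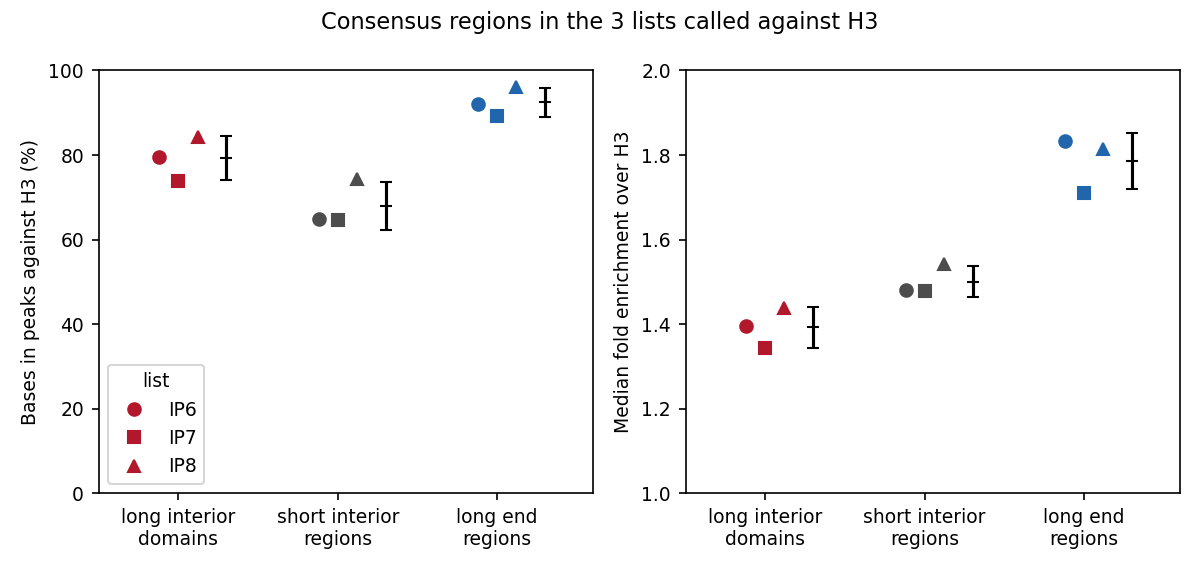
Left, bases in peaks of the 3 lists against H3 (y, percent) and right, median fold enrichment over H3 (y, a ratio, axis from 1), for long interior domains, short interior regions and long end regions (x). Symbols are the lists IP6, IP7 and IP8 and bars are mean and SD (n = 3). Folds are over the regions with a peak in that list. Long interior domains averaged 79.3% and 1.39, short interior regions 68.0% and 1.5005, and long end regions 92.5% and 1.79.

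Against input, the medians of the long interior domains were 1.47, 1.38 and 1.55, those of short interior regions 1.60, 1.58 and 1.67, and those of long end regions 2.08, 1.75 and 1.96. These values come from the lists that chose the regions and are given without a test. Long interior domains again had the lowest of these values in each list.

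Single domains ranged more widely than the classes. Over the 214 domains with a peak in all 3 lists against H3, the mean fold ran from 1.05 to 3.41 with a median of 1.499, and it was under 1.5 in 110. It reached 2 in 46 domains, 15.3% of the 301, where 20.9% of all consensus regions reached it.

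The order of the domains by fold depended on the control. Over the 209 domains with a peak in all 6 lists, the fold over H3 was higher than the fold over input within each tag in 43, lower within each in 95 and mixed in 71. A mean fold of at least 2 was reached under both controls by 27 domains, over H3 alone by 19 and over input alone by 22. Pearson's r between both mean folds was 0.488 and Spearman's rho 0.468 (n = 209 domains). The points share the H3K27me3 libraries and, within each control, the control reads, so this is a description.

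**Figure D3:**
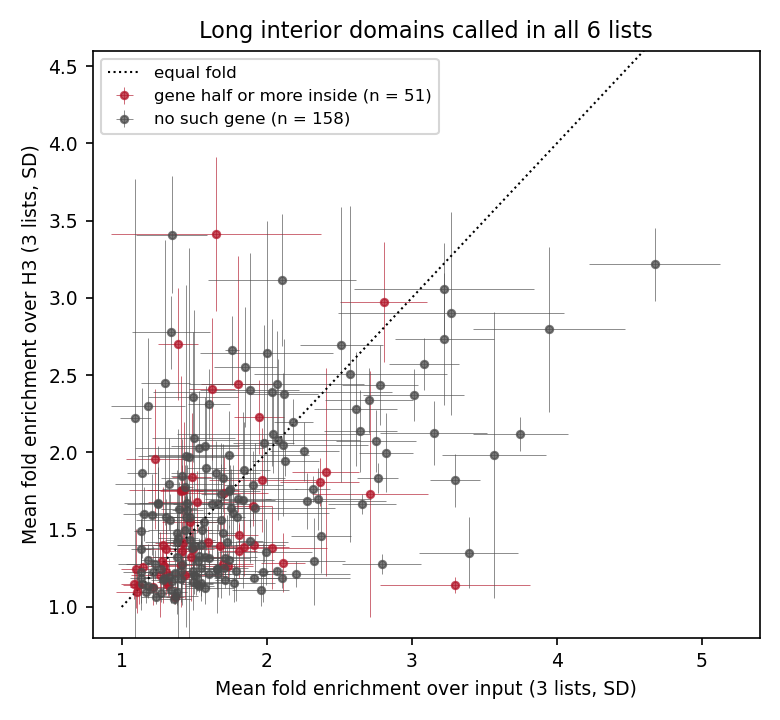
Mean fold enrichment over H3 (y) and over input (x) of the 209 long interior domains called in all 6 lists, with SD over the 3 lists of each control. Red points are domains with at least 1 gene inside by 50% or more, grey points the others, and the dotted line marks equal fold. Points lie on both sides of the line, with 27 domains at 2 or more on both axes.

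The ratio of the mean fold over H3 to the mean fold over input, looked at after the values were seen, ran from 0.346 to 2.53 over these domains. The lowest ratio was that of a 2288 bp domain on chromosome 14 (694822-697109), with folds of 1.15, 1.19 and 1.09 over H3 and 3.75, 2.74 and 3.41 over input in IP6, IP7 and IP8. A 2376 bp gene-free domain on chromosome 15 (327526-329901) was next, at 0.398, with 1.37, 1.11 and 1.57 over H3 and 3.56, 3.00 and 3.61 over input. The highest ratio was that of a 3448 bp gene-free domain on the same chromosome (355579-359026), with 3.51, 2.99 and 3.72 over H3 and 1.57, 1.08 and 1.38 over input. A 2966 bp gene-free domain on chromosome 13 (694503-697468) was next, at 2.07, with 2.54, 3.01 and 2.78 over H3 and 1.22, 1.15 and 1.65 over input. In each of these 4 domains the 3 folds under one control did not overlap the 3 under the other. The 4 were picked as extremes of the ratio of these same folds, so that separation follows largely from the choice.

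The 10 longest domains held genes more often than the whole set: 8 of the 10 touched at least 1 gene, and 94 of all 301 did. All coordinates are those of the deposited lists, which use version v3 of the C. merolae Genome Project, and count from 1. The longest, 8706 bp on chromosome 10 (63566-72271), held the whole of CMJ021C, a gene of 609 bp, so that nearly all of the domain lay outside genes. It was covered over 100% in each list against H3, with folds of 1.56, 1.23 and 1.29 over H3 and 1.92, 1.68 and 1.83 over input. A 7235 bp domain on chromosome 1 (66205-73439), around the whole of CMA024C, had folds over H3 of 1.40, 1.22 and 1.28.

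The next longest domains also had folds below 2. A 6982 bp domain on chromosome 18 (774828-781809), with 56.0% of the RNA gene CMR321T and the whole of CMR322C, had 1.16, 1.11 and 1.22 over H3. A 6902 bp domain on chromosome 13 (266377-273278) held CMM115C and CMM116C whole and had 1.32, 1.29 and 1.58. A 6823 bp domain on chromosome 11 (489384-496206), around CMK179C, had 1.02, 1.07 and 1.10. It was nevertheless covered over 98.5, 96.3 and 98.2% of its length, so a long peak was called in each list at a fold close to 1.

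Other domains of the 10 longest stood apart in fold or between lists. A 6806 bp domain on chromosome 7 (48233-55038), with CMG018C whole and 97.5% of CMG019C, had folds of 3.31, 2.55 and 3.06 over H3 and 3.03, 2.46 and 2.93 over input. It was the only one of the 10 longest that was also among the 10 with the highest fold over H3, and its midpoint, 51.6 kb from the span end, was just past the 50 kb limit. A 6156 bp domain on chromosome 19 (576238-582393) was covered over 96.7% in IP6, 0% in IP7 and 99.2% in IP8 against H3.

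The gene-free domains of this group were a 6250 bp domain on chromosome 17 (294581-300830) and a 5764 bp domain on chromosome 6 (333284-339047). The domain on chromosome 17 filled 83.4% of a 7498 bp intergenic stretch and had folds over H3 of 1.32, 1.22 and 1.45. The domain on chromosome 6 varied more, with 1.23, 2.22 and 2.74. A 6163 bp domain on chromosome 18 (948766-954928), around CMR390C, completes the 10, with 1.25, 1.23 and 1.28.

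The domains with the highest fold over H3 were mostly shorter than the 10 longest, which were picked on length. Among all long interior domains the median length was 2748 bp and the upper quartile 3446 bp. Of the 10 highest, chosen on fold and so described without a test, 9 were between 2021 and 3448 bp, as were most domains. The highest, 2497 bp on chromosome 3 (218465-220961), held 93.3% of CMC093C and had folds over H3 of 3.75, 2.84 and 3.64, against 2.49, 1.24 and 1.23 over input. A 3448 bp gene-free domain on chromosome 15 (355579-359026) lay at one side of a 9374 bp intergenic stretch, 219 bp from the closer gene and 5707 bp from the other. It is the domain with the highest ratio between controls, given above.

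Other domains of this group were high under both controls. A 2584 bp domain on chromosome 2 (83374-85957), reaching over 36.3% of CMB034C, had 3.23, 2.98 and 3.45 over H3 and 4.85, 4.16 and 5.02 over input, and was covered over 100% in each list against H3. A 2502 bp domain on chromosome 11 (69921-72422), with 61.2% of its bases in the RNA gene CMK025T, had 3.20, 2.71 and 3.25 over H3. IP7 gave the lowest fold over H3 in 9 of the 10, the domain at 694503-697468 on chromosome 13 being the exception. This was not particular to the group: IP7 also had the lowest median over all long interior domains (1.34) and over long end regions (1.71).

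**Figure D4:**
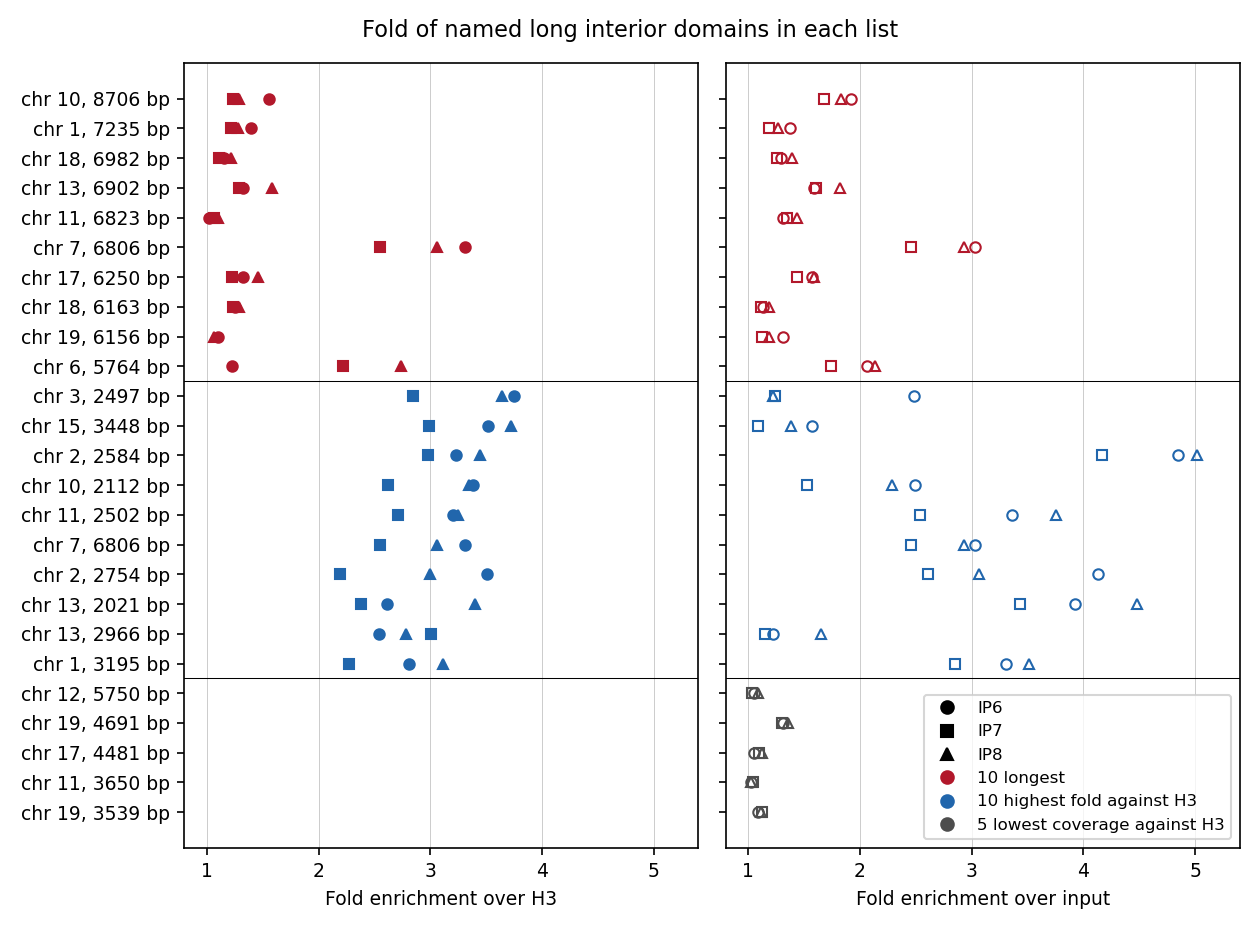
Fold enrichment over H3 (left) and over input (right) in the lists IP6, IP7 and IP8 (symbols) for the 10 longest domains (red), the 10 with the highest mean fold over H3 (blue) and the 5 with the lowest coverage against H3 (grey), named by chromosome and length. The domain of 6806 bp on chromosome 7 belongs to the first 2 groups and is drawn in both. The grey domains have no point on the left because no peak against H3 overlapped them.

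The 5 domains with the lowest coverage against H3, out of the 15 with no covered base, were long ones by the rule for ties. A 5750 bp gene-free domain on chromosome 12 (326034-331783) was covered over 98.3, 100 and 97.1% against input at folds of 1.05, 1.03 and 1.09. A 4691 bp domain on chromosome 19 (753415-758105), around the whole of CMS295C, had 1.32, 1.30 and 1.35 over input. A 3650 bp domain on chromosome 11 (471157-474806), around the whole of CMK170C, had 1.03, 1.05 and 1.03.

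Like these, both others were called against input in each list and against H3 in none. They were gene-free domains of 4481 bp on chromosome 17 (353919-358399) and 3539 bp on chromosome 19 (668911-672449), filling 73.7% and 73.4% of their intergenic stretches.

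Coverage against H3 differed with length, distance and gene content. Domains of 6 kb or more (n = 9) were covered over 95.1 ± 5.51% against H3 and domains of 2 to 3 kb (n = 186) over 76.4 ± 5.38% (SD over 3 lists), while the median fold over H3 was 1.28 in the 9 longest and 1.41 in the 186. These 9 domains were thus more completely called at a lower median fold. Across the 209 domains with a peak in all 6 lists, however, length and mean fold over H3 were only weakly related (r = -0.112, rho = -0.108). Domains 50 to 100 kb from the nearest span end (n = 47) were covered over 85.2 ± 2.91% at a median fold of 1.61, those at 100 to 200 kb (n = 93) over 85.8 ± 3.05% at 1.42, those at 200 to 400 kb (n = 118) over 76.5 ± 6.41% at 1.37, and those beyond 400 kb (n = 43) over 65.6 ± 12.95% at 1.21. Only the longer chromosomes have positions beyond 400 kb. Across the same 209 domains the relation of distance to mean fold over H3 was weak (r = -0.12, rho = -0.14). Domains without a peak in some list are left out of both relations, so neither bears on coverage. These comparisons were not tested.

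Domains with at least 1 gene inside by 50% or more (n = 66) were covered over 86.6 ± 5.19% against H3, against 76.3 ± 4.99% for the 207 gene-free domains. They were also longer, with a median of 3330 bp against 2561 bp, and length moved with coverage as given above, so the part of gene content was not tested. The median fold over H3 was 1.34 in the 66 and 1.41 in the 207. The 20 domains that touched 2 genes were covered over 91.9 ± 2.02%.

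Chromosomes differed in how much of their interior the domains took. The number ran from 10 on chromosomes 2, 7 and 12 to 23 on chromosome 20, the longest. Per 100 kb of interior, chromosome 1 had 4.36 domains, chromosome 6 3.67 and chromosome 4 3.63, whereas chromosome 12 had 1.32, chromosome 19 1.35 and chromosome 15 1.49. The share of interior bases in domains was highest on chromosome 1 (13.2%) and lowest on chromosome 15 (3.96%). Across the 20 chromosomes it was related to the span with r = -0.746 and rho = -0.792, as a description, since the points share the same libraries. The interior of a short chromosome also lies nearer to its ends. Over all chromosomes, domains took 7.47% of the bases 50 to 100 kb from a span end and 4.73% of those beyond 400 kb. The part of distance in the relation to span was not tested.

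Coverage of the domains against H3 tended to be lower on longer chromosomes (r = -0.461, rho = -0.353, n = 20 chromosomes, a description). It did not follow span alone. It was 97.5 ± 1.72% on chromosome 9 and 92.3 ± 0.737% on chromosome 15, where the share of the interior in domains was the lowest, and 60.5 ± 13.5% on chromosome 12 and 62.3 ± 14.6% on chromosome 19 (SD, n = 3 lists). On chromosome 9, 13 of 13 domains were covered over at least 50% in at least 2 lists against H3, and on chromosome 19, 11 of 16. The lists differed most on chromosome 5, with 84.0 ± 20.4%.

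**Figure D5:**
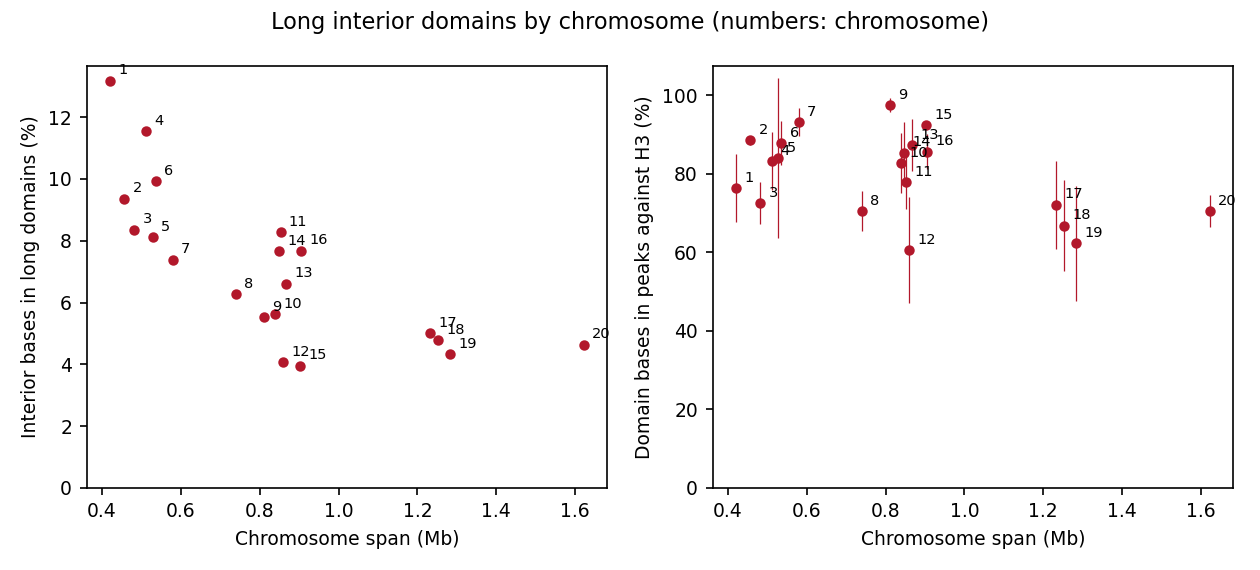
Left, share of chromosome interior in long interior domains (y, percent) and right, domain bases in peaks against H3 (y, percent, mean and SD of 3 lists), against chromosome span (x, Mb), with the chromosome number beside each point. Chromosome 1 has 13.2% and chromosome 15 3.96% on the left, and chromosome 9 has 97.5% and chromosome 12 60.5% on the right.

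The genes of the PRC2 homologs in C. merolae lay outside the domains, as most genes did. Domains touched 114 of the 5373 genes, and 3.57% of genes lay at least 50% inside any consensus region. CMQ156C, the E(z) homolog on chromosome 17, CMK173C, the ESC homolog on chromosome 11, and CML082C, the Su(z)12 homolog on chromosome 12, had 0% of their length covered in any of the 6 lists, and the nearest domain was 1761, 6261 and 9421 bp away. Of the loci used for ChIP-PCR in the study, CMA095C on chromosome 1 was covered over 100% in each list against H3, but by a short interior region, with the nearest long domain 21944 bp away. CMK028C and CMS262C were covered in no list, and CMK028C was 629 bp from a domain on chromosome 11. The 5 protein splicing genes the study drew from these samples (CMS508C, CMP358C, CMH283C, CMH001C and CMR506C) had 0 bp in long interior domains, each being within 5 kb of a span end. That list was chosen by the study on these samples and is no independent evidence of where the mark lies.

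Domain edges differed little between lists. For the 282 domains with a peak in all 3 lists against input, edge positions spanned a median of 87 bp (90th percentile 289 bp). For the 214 with a peak in all 3 lists against H3 the median was 104.5 bp (90th percentile 349 bp). Within a tag, the edge against H3 was a median of 59.5, 43 and 50 bp from the edge against input in IP6, IP7 and IP8. The 90th percentiles were 293.4, 289.6 and 315.5 bp, and 66.9, 71.5 and 67.6% of edges lay within 100 bp. Both lists of a tag use the same H3K27me3 reads. Where a domain was called under both controls, most of its outer edges thus moved little with the control. Breaks inside a domain are not seen by this measure.

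At the 2000 bp limit, 7 domains measured 2006 to 2023 bp and 4 interior regions just under it measured 1975 to 1987 bp. Mean coverage against H3 ran from 0 to 99.4% in the domains just inside and from 33.1 to 96.6% in the regions just outside. Mean fold over input ran from 1.41 to 3.95 in the 6 domains just inside that had a peak in all 3 input lists and from 1.11 to 1.83 in the regions just outside.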

How the data were processed

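The authors trimmed paired-end reads, mapped them with Bowtie2 2.2.6 and called broad peaks per immunoprecipitation with MACS2 2.1 without clonal reads; their notes also name FastQC 0.11.4 and bedtools 2.17. The 6 deposited lists hold, per peak, its coordinates, the fold over its control (a ratio) and the −log10 of its p-value and q-value. All lists were used (0 left over). Which H3 library served each list is not given in the sources used here, and tags could not be matched to replicate numbers. Span ends are the largest peak end over the lists, a lower bound on chromosome length.

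A region's fold in a list is the mean of overlapping peaks weighted by overlapped bases, and a region without a peak has none. Genes came from the RefSeq table of assembly ASM9120v1, another name than the authors' reference. Member bases inside genes were 12.9% as given and 51.1% with genes moved by 3000 bp either way, and no sequences were compared. That table gives neither strand nor product.

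Lists were compared by exact permutation tests (Python 3.11.15, numpy 2.4.6, scipy 1.17.1; figures, matplotlib 3.10.9), Benjamini-Hochberg adjusted over 3 comparisons. The lists of a control come from 3 biological replicates, those against input share 1 input library, and the lists against H3 come from the same H3K27me3 libraries that chose the domains. Code was tested on simulated data. Named domains were the 10 longest, the 10 with the highest mean fold over H3, the 5 with the lowest coverage against H3, and those within 25 bp of the length limit; named genes were those at least 50% inside a named domain, all touching the 5 longest, the 10 with the most bases inside domains, and lists from the study. Members and lists were chosen with earlier results of these data known. Alternatives were other limits of length, distance, q-value, fold and overlap, merged regions and leaving out each list.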

Additional observations from a re-analysis of the deposited data

How the results depend on the processing

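The directions of the differences from short interior and long end regions were kept under each alternative. The coverage difference ranged from 6.02 to 8.81 points with 1 list left out, the fold difference from short interior regions from -0.146 to -0.117, and that from long end regions from -0.384 to -0.368. Both classes' values come from the same list, and a replicate block by tag (sign flips) left the differences at 11.3 points, -0.108 and -0.393, with an exact p = 0.25, the smallest possible. The number of domains was 454 at a minimum of 1500 bp, 115 at 3000 bp and 49 with peaks of a fold of at least 2, and 259 to 273 with 1 list left out. The share of domain bases inside genes was 13.2% at 1500 bp, 16.3% at 3000 bp, 13.1% at 25 kb from span ends, 14.0% with bases in 3 of 3 lists, 14.0% at a −log10 q of at least 5 and 11.6% at a fold of at least 2, and 13.2 to 14.0% with 1 list left out. Genes numbered 9 at that fold, 114 with any overlap and 69 to 74 with 1 list left out. Domains covered over at least 50% in at least 2 lists against H3 numbered 101 of 115 at 3000 bp, 146 of 206 at that q and 25 of 49 at that fold. With 1 list left out they numbered 196 to 219 of 259 to 273. At that q, at that fold and with 1 list left out, the share was below the 85.4% (257 of 301) of the main setting. With 1 list left out only 2 remain, so a domain then had to be covered in both. That requirement is stricter than 2 of 3 lists, so this lower share follows in part from it. Coverages of named domains were recomputed only at that q limit and that fold limit. Of these 60 values, 21 moved beyond the spread between lists, 14 of them at a fold of at least 2. All 21 were lower, which was fixed in advance, since both limits only take peaks out of the lists. The cause of the other changes was not tested. The lists hold no counts, so peaks missing from a list cannot be told apart from signal under its threshold, and spans are lower bounds.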
